A study of Mus musculus with 8 samples.

Results

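Trace amine-associated receptors were followed across 8 RNA sequencing libraries of mouse olfactory epithelium. The members are the 10 named genes Taar2, Taar3, Taar4, Taar5, Taar6, Taar7a, Taar7b, Taar7d, Taar7e and Taar9, taken by symbol from the 25913 genes of the deposited read count table. They were chosen by name and not by a measured value, though earlier results of these data were known. The study compared mice in which the insulin-like growth factor 1 receptor gene Igf1r was removed from olfactory sensory neurons with their controls. The design text calls the knockout OMPIGF1R and the control OMPflfl, and speaks of extracted sensory neurons, whereas the sample labels give olfactory epithelium. Tissue came from C57BL/6J mice aged 40 weeks.

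The 4 libraries titled OMP_IGF1R (replicates 11, 12, 17 and 18) are set against the 4 titled IGF1R_flfl (replicates 1, 2, 3 and 13). The genotype field contradicts the titles: it marks the libraries titled OMP_IGF1R as control and those titled IGF1R_flfl as knockout. Groups are therefore named by title, and which group lacks Igf1r rests on the title or the genotype field, whichever is correct. Omp, the gene of olfactory marker protein that names the OMP mice, is active in mature olfactory sensory neurons, so the other cells of the dissected epithelium would keep Igf1r. The labels do not say that each library came from a separate animal, so the p-values here reflect library-to-library spread, which may be technical. The numbers that open the titles run from 35156 to 35159 for OMP_IGF1R and from 35138 to 35141 for IGF1R_flfl, and anything that follows them cannot be told apart from the group.

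Trace amine-associated receptors are membrane receptors coupled to G proteins and related to the receptors for biogenic amines. In the mouse nose they detect volatile amines, such as those of urine and decaying food. As with odorant receptors, a sensory neuron expresses mainly a single receptor gene, and most neurons that express a trace amine-associated receptor lie in the dorsal zone of the epithelium. The genes form a cluster on mouse chromosome 10, which in the deposited table ran from Taar1 at position 23920356 to Taar9 at position 24109582 (GRCm38).

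The Taar7 genes are close copies of each other, and the first 60 coding bases show where Taar7a parts from the rest. These bases were read from the GENCODE M21 transcripts (GRCm38). Capitals mark bases that differ from the base carried by at least 3 of the 5 genes, or any base where no 3 genes share one. They are shown because the main result concerns Taar7a and because reads are assigned to these genes by such differences. The stretch was picked as the 60 bases with the most positions at which Taar7a differs from all other Taar7 genes. It is therefore not typical of the whole gene.
Taar7a: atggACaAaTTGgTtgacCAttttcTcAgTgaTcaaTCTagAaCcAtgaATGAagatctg
Taar7b: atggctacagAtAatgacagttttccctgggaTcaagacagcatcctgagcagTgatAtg
Taar7d: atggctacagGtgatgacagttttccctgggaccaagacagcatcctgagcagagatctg
Taar7e: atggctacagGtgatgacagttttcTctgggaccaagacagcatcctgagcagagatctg
Taar7f: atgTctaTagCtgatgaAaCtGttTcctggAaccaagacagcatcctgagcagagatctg

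The Taar7a stretch lies on the minus strand at chr10:23993422-23993481. The other stretches lie on the plus strand, at chr10:23999939-23999998 for Taar7b, chr10:24027222-24027281 for Taar7d, chr10:24037614-24037673 for Taar7e and chr10:24049510-24049569 for Taar7f. Taar7a differed from all 4 other genes at 21 of these 60 bases and at 32 bases over its coding length of 1077. Over that length the 5 genes were 91.7% (Taar7a and Taar7f) to 95.4% (Taar7e and Taar7f) identical. Of the windows of 100 bases, the length of a read, 51.6% in Taar7a, 51.5% in Taar7b, 44.2% in Taar7d and 56.7% in Taar7e matched another Taar transcript with at most 2 mismatches. No such window was found in Taar2, Taar3, Taar4, Taar5, Taar6 or Taar9. Windows with an exact match were fewer, at 9.61% in Taar7a, 17.1% in Taar7b, 10.9% in Taar7d and 33.2% in Taar7e. How the authors' counting treated reads that match several genes is not given in the sources used here, so values of single Taar7 genes are uncertain.

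The libraries held 18802471 to 25585192 counts in the group titled OMP_IGF1R and 23176815 to 27793375 in the group titled IGF1R_flfl. All 10 members passed the filter on low counts, but they are low: the 10 together had 205 to 406 counts per library in OMP_IGF1R and 255 to 692 in IGF1R_flfl. Levels are in CPM, counts relative to library sizes that were scaled by TMM. Igf1r stood at 34.5 to 49.6 CPM in OMP_IGF1R and at 55.5 to 72.9 CPM in IGF1R_flfl, and so was lower in the libraries whose title names the knockout. Its log2 fold change was -0.66 under TMM (edgeR adjusted p = 0.0117). Scaled to mature neuron genes it was -0.02 (edgeR adjusted p = 0.89), where the median over all genes was 0.61. Scaled to summed odorant receptor (Olfr) counts it was -0.15 (edgeR adjusted p = 0.30), where that median was 0.48. In 2 libraries markers of other tissue stood apart. The sum of muscle markers was 607 CPM in OMP_IGF1R 17 and no more than 7.65 CPM in any other library, and that of olfactory bulb and oligodendrocyte markers was 2243 CPM in IGF1R_flfl 2 and no more than 403 CPM in any other.

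Of the 10 receptors, 1 fell in the libraries titled OMP_IGF1R, 0 rose and 9 did not pass the test. The receptor that fell was Taar7a. Over all 17381 genes tested, 8.20% were called by edgeR's quasi-likelihood test at a Benjamini-Hochberg adjusted p under 0.05, 5.37% lower and 2.83% higher, so 1 call among 10 members is near the background. The groups did not overlap for 1 member, against 16.9% of all tested genes in either direction and 10.3% with OMP_IGF1R lower. The median log2 fold change of the members was -0.49, with a range of -2.06 to 0.13, beside -0.33 for the 875 tested Olfr genes, which encode the odorant receptors, and -0.01 for all tested genes. In bulk tissue, fewer cells of a type and less RNA per cell cannot be told apart.

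Taar7a, a receptor of the Taar7 subfamily that has expanded in rodents, had 0.408, 0.490, 0.354 and 0.499 CPM in OMP_IGF1R 11, 12, 17 and 18, against 1.38, 1.91, 1.98 and 2.18 CPM in IGF1R_flfl 1, 2, 3 and 13. Every OMP_IGF1R library was below every IGF1R_flfl library, and each group was tight. The means were 0.438 ± 0.0693 CPM in OMP_IGF1R and 1.86 ± 0.343 CPM in IGF1R_flfl (SD, n = 4 each). The log2 fold change was -2.06 (SE 0.226, edgeR adjusted p = 0.00278). These values rest on 42 counts in OMP_IGF1R and 186 counts in IGF1R_flfl. Counting error on these counts alone would give an SE above 0.226, so the edgeR SE understates the uncertainty. The gene lies on chromosome 10 from 23992405 to 23993481 in the deposited table (ENSMUSG00000095647). The call was kept in each of the 8 fits that left out 1 library, with log2 fold changes of -1.97 to -2.19 and edgeR adjusted p of up to 0.0154. In the authors' deposited table Taar7a had a log2 fold change of -1.05 (SE 0.178) and an adjusted p of 2.96e-07. DESeq2 on the same counts gave -2.07 here (SE 0.359, DESeq2 adjusted p = 6.93e-07). The authors' version of DESeq2 is not given, so the sizes of the fold changes are not directly comparable.

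**Figure D1:**
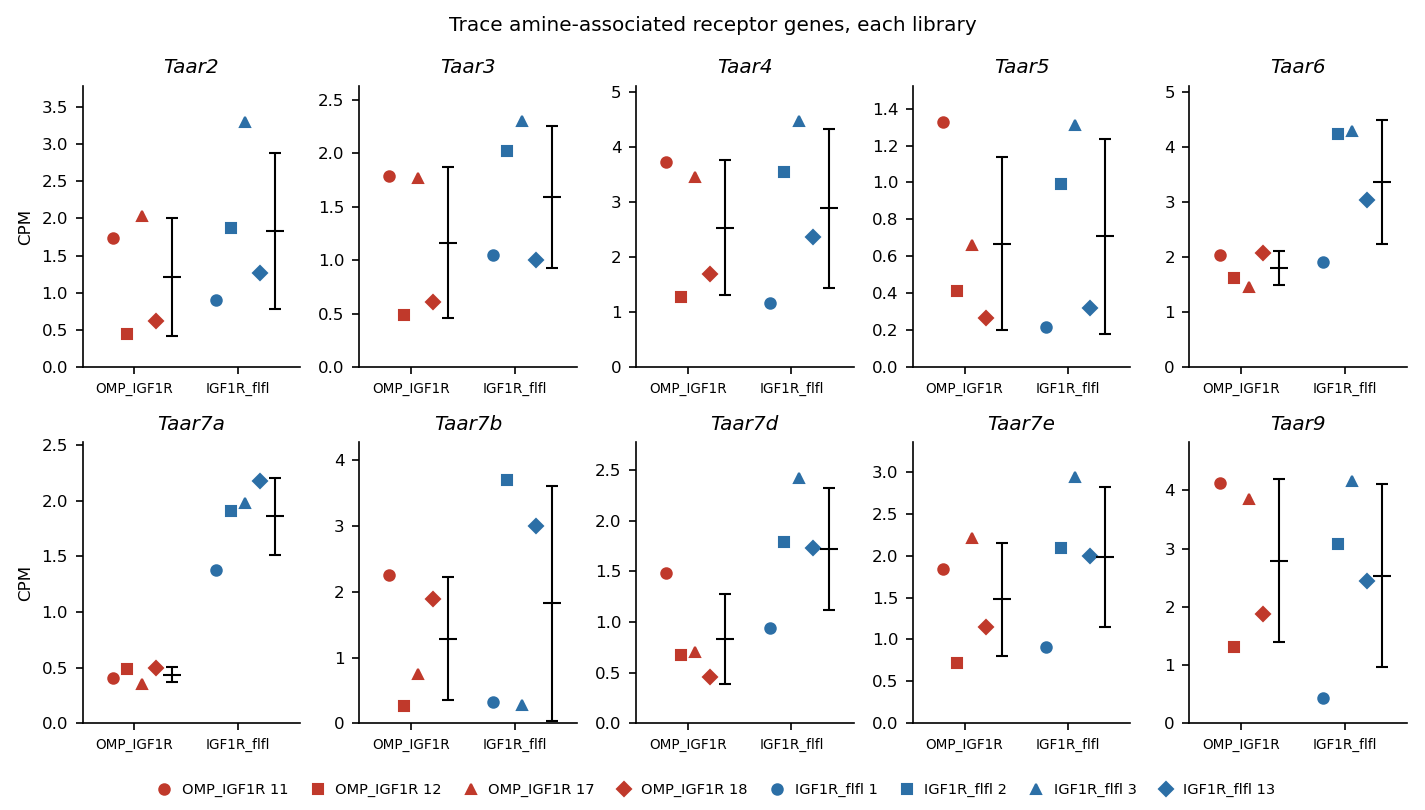
CPM of each of the 10 receptors in each library, OMP_IGF1R (red) left of IGF1R_flfl (blue), each panel on its own axis from 0. Black marks give mean and SD (n = 4 each). Taar7a separates the groups, at 0.354 to 0.499 CPM in OMP_IGF1R and 1.38 to 2.18 CPM in IGF1R_flfl, while the other 9 receptors overlap.

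In the other Taar7 members the groups overlapped. Taar7b had 2.24, 0.264, 0.752 and 1.88 CPM in OMP_IGF1R 11, 12, 17 and 18, against 0.326, 3.70, 0.278 and 2.998 CPM in IGF1R_flfl 1, 2, 3 and 13. It was high in some libraries and low in others of both groups, with the highest of the 8 values 14.01 times the lowest, the widest range of the 10 members. In IGF1R_flfl 3, where 7 of the 10 members reached their highest level of all 8 libraries, Taar7b stood at its second lowest, with 7 counts. Its log2 fold change was -0.51 (SE 0.859, edgeR adjusted p = 0.77).

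Taar7d had 1.48, 0.678, 0.708 and 0.461 CPM in OMP_IGF1R and 0.942, 1.79, 2.42 and 1.73 CPM in IGF1R_flfl, in the same library order. OMP_IGF1R 12, 17 and 18 lay below all 4 libraries titled IGF1R_flfl, and OMP_IGF1R 11 lay among them. The log2 fold change was -1.07 (SE 0.390), and it did not pass the test (edgeR adjusted p = 0.134). Taar7e had 1.84, 0.716, 2.21 and 1.15 CPM in OMP_IGF1R and 0.905, 2.10, 2.93 and 2.00 CPM in IGF1R_flfl. The groups overlapped (log2 fold change -0.43, SE 0.409, edgeR adjusted p = 0.57). Taar7f, a Taar7 gene that is not among the 10 members, averaged 0.886 ± 0.422 CPM in OMP_IGF1R and 0.970 ± 0.578 CPM in IGF1R_flfl (SD, n = 4 each).

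The 5 Taar7 genes together had 7.45, 2.68, 4.91 and 4.65 CPM in OMP_IGF1R 11, 12, 17 and 18, against 4.16, 10.6, 9.36 and 9.36 CPM in IGF1R_flfl 1, 2, 3 and 13. This sum does not depend on how reads are split among these 5 genes, and in it the groups overlapped through IGF1R_flfl 1. Within it, Taar7a made up 5.48%, 18.3%, 7.21% and 10.7% in OMP_IGF1R and 33.0%, 18.1%, 21.2% and 23.3% in IGF1R_flfl, so the shares overlapped between OMP_IGF1R 12 and IGF1R_flfl 2. Taar7b made up 9.86% to 40.5% in OMP_IGF1R and 2.97% to 35.0% in IGF1R_flfl.

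After Taar7a, Taar6 had the smallest p of the 10 members. It had 2.04, 1.62, 1.46 and 2.07 CPM in OMP_IGF1R 11, 12, 17 and 18, against 1.92, 4.23, 4.28 and 3.04 CPM in IGF1R_flfl 1, 2, 3 and 13. All libraries titled IGF1R_flfl but replicate 1 lay above the OMP_IGF1R libraries. The means were 1.80 ± 0.306 CPM in OMP_IGF1R and 3.37 ± 1.12 CPM in IGF1R_flfl (SD, n = 4 each). The log2 fold change of -0.90 (SE 0.265) did not pass the test (edgeR adjusted p = 0.0699). It passed without IGF1R_flfl 1 (-1.10, edgeR adjusted p = 0.0246) and with DESeq2 (-0.90, DESeq2 adjusted p = 0.0340), and the adjusted p was 0.0246 to 0.948 over the 19 alternatives. The authors' deposited table gave Taar6 a log2 fold change of -0.51 with an adjusted p of 0.0314. As for Taar7a, its size is not directly comparable with the fold changes found here.

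The receptors of the first part of the cluster differed more between libraries of a group than between the groups. Taar4, a receptor for 2-phenylethylamine, had 3.72, 1.28, 3.45 and 1.69 CPM in OMP_IGF1R 11, 12, 17 and 18, against 1.16, 3.54, 4.48 and 2.36 CPM in IGF1R_flfl 1, 2, 3 and 13. Taar3, a receptor for isoamylamine, had 1.79, 0.490, 1.77 and 0.614 CPM in OMP_IGF1R and 1.05, 2.02, 2.30 and 0.999 CPM in IGF1R_flfl. Taar2 had 1.73, 0.452, 2.03 and 0.614 CPM in OMP_IGF1R and 0.905, 1.87, 3.29 and 1.27 CPM in IGF1R_flfl. In all 3 receptors OMP_IGF1R 11 and 17 were well above OMP_IGF1R 12 and 18, and IGF1R_flfl 3 was the highest library. Their log2 fold changes were -0.20 for Taar4, -0.47 for Taar3 and -0.62 for Taar2, with edgeR adjusted p of 0.84, 0.59 and 0.53 in that order.

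Taar5, the receptor for trimethylamine, had the lowest mean of the members in IGF1R_flfl and the lowest but that of Taar7a in OMP_IGF1R, with 1.33, 0.414, 0.664 and 0.269 CPM in OMP_IGF1R and 0.217, 0.991, 1.31 and 0.318 CPM in IGF1R_flfl. It rests on 59 counts in OMP_IGF1R and 72 in IGF1R_flfl, and its log2 fold change was -0.13 (SE 0.628, edgeR adjusted p = 0.93). Taar9, at the far end of the cluster, was the only member with a positive fold change (log2 0.13, SE 0.574, edgeR adjusted p = 0.92). It had 4.13, 1.32, 3.85 and 1.88 CPM in OMP_IGF1R 11, 12, 17 and 18, against 0.435, 3.09, 4.16 and 2.45 CPM in IGF1R_flfl 1, 2, 3 and 13. Both receptors were lowest in IGF1R_flfl 1, and the groups overlapped.

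Per kilobase of coding length, Taar9 and Taar4 were the highest members in OMP_IGF1R, at 2.67 ± 1.34 and 2.43 ± 1.18 CPM per kilobase (SD, n = 4 each). In IGF1R_flfl the highest were Taar6 at 3.25 ± 1.08, Taar4 at 2.76 ± 1.38 and Taar9 at 2.42 ± 1.498 CPM per kilobase. By the median over all 8 libraries the order of levels was Taar4 (2.78), Taar9 (2.65), Taar6 (1.98), Taar7e (1.78), Taar2 (1.47), Taar3 (1.37), Taar7b (1.22), Taar7d (1.12), Taar7a (0.871) and Taar5 (0.532 CPM per kilobase). In OMP_IGF1R the means of neighbours in this order differed by less than the larger of their SDs between libraries. In IGF1R_flfl the same held except for Taar6 beside Taar7e (1.84 ± 0.773) and for Taar7a (1.73 ± 0.319) beside Taar5 (0.699 ± 0.520 CPM per kilobase; SD, n = 4).

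The libraries fell in much the same order from receptor to receptor. OMP_IGF1R 11 and 17 were both above OMP_IGF1R 12 and 18 in 7 of the 10 members. IGF1R_flfl 1 was the lowest of its group in 8 members and IGF1R_flfl 3 the highest of its group in 8. Summed, the 10 members had 20.7, 7.72, 17.3 and 11.1 CPM in OMP_IGF1R 11, 12, 17 and 18, against 9.23, 25.2, 27.4 and 19.3 CPM in IGF1R_flfl 1, 2, 3 and 13. The low libraries OMP_IGF1R 12, OMP_IGF1R 18 and IGF1R_flfl 1 thus came from both groups, and the group means of 14.2 ± 5.86 CPM in OMP_IGF1R and 20.3 ± 8.14 CPM in IGF1R_flfl differed by less than the larger SD (n = 4 each).

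Among 14861 other genes with a mean log2 CPM of at least 1, the profile most like that of the summed receptors was that of Nqo1, a quinone reductase that marks the sensory neurons of the dorsal zone. Likeness was measured as the root mean square distance between log2 CPM profiles over the 8 libraries, each centred on its mean. The distance was 0.186 for Nqo1, beside a median of 0.652 for all genes compared and 0.718 for Omp, a marker of mature neurons of all zones. Adcy3, the adenylyl cyclase of odour signalling, was nearer than that median, at 0.580 (rank 1842). Nqo1 had 313, 136, 273 and 153 CPM in OMP_IGF1R 11, 12, 17 and 18, against 131, 303, 334 and 320 CPM in IGF1R_flfl 1, 2, 3 and 13. The low libraries of Nqo1 were those of the receptors, and the groups overlapped (log2 fold change -0.31, SE 0.337, edgeR adjusted p = 0.63). The next in likeness were the odorant receptor genes Olfr994 (0.212), Olfr665 (0.217), Olfr1377 (0.234) and Olfr1045 (0.242).

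**Figure D2:**
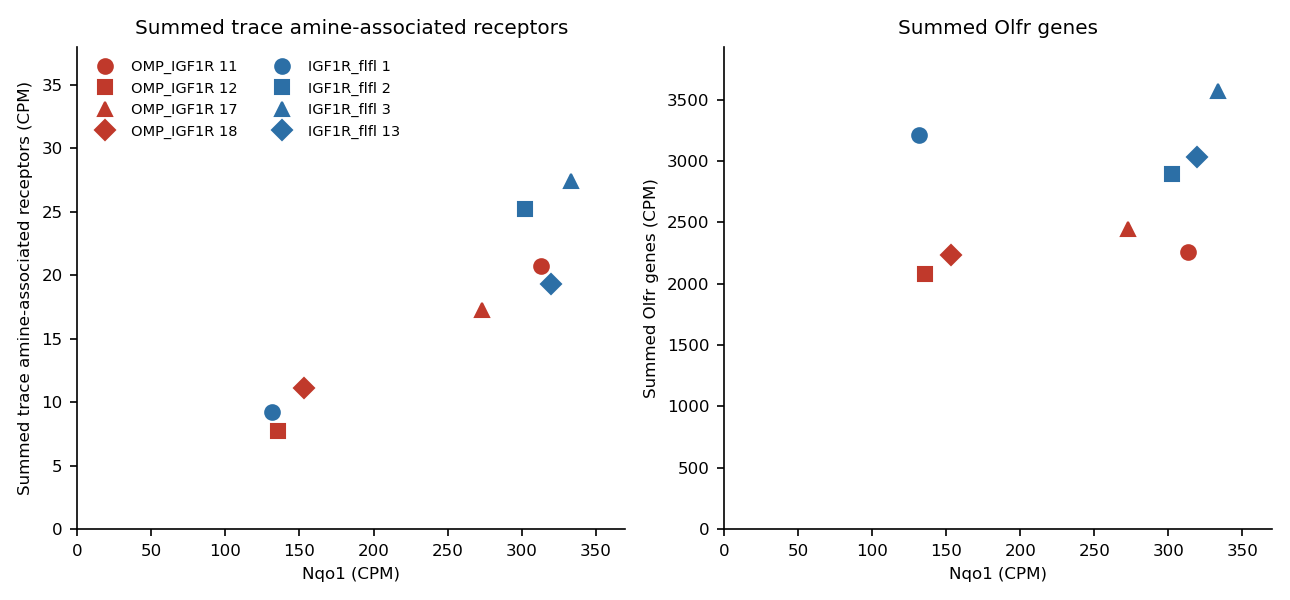
Each point is 1 library, OMP_IGF1R in red and IGF1R_flfl in blue, with Nqo1 (CPM) on the x axis. On the left the summed trace amine-associated receptors (CPM) are low, at 7.72 to 11.1, in the 3 libraries where Nqo1 is at 131 to 153 CPM. On the right the summed Olfr genes (CPM) separate by group, with all OMP_IGF1R libraries at or below 2445 CPM and all IGF1R_flfl libraries at or above 2896 CPM.

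The receptors were also set against Nqo1. Since Nqo1 was picked as the closest of all genes compared, a narrower spread of the sum follows from that choice and is given as a description. Per 100 CPM of Nqo1, the 10 members summed to 6.61, 5.69, 6.32 and 7.28 CPM in OMP_IGF1R 11, 12, 17 and 18, against 7.02, 8.34, 8.23 and 6.06 CPM in IGF1R_flfl 1, 2, 3 and 13. The highest library was 1.47 times the lowest, whereas it was 3.55 times the lowest in CPM. Acsm4, another gene of the dorsal zone, stood at 586, 371, 484 and 365 CPM in OMP_IGF1R and at 247, 451, 447 and 398 CPM in IGF1R_flfl, and its 3 lowest values came from the same 3 libraries, with IGF1R_flfl 13 close to them. Its profile ranked 127 in likeness to the summed receptors. Robo2 and Sema3f, an axon guidance receptor and ligand also linked to dorsal neurons, had a highest library 1.30 times (Robo2) and 1.37 times (Sema3f) the lowest. Whether the dissections held unequal amounts of dorsal epithelium was not tested.

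The 2 members with the poorest likeness to Nqo1 were Taar7b and Taar7a, at distances of 1.34 and 1.039, and the closest were Taar7e (0.228) and Taar4 (0.274). Per 100 CPM of Nqo1, Taar7a had 0.130, 0.361, 0.130 and 0.326 CPM in OMP_IGF1R 11, 12, 17 and 18, against 1.05, 0.630, 0.594 and 0.682 CPM in IGF1R_flfl 1, 2, 3 and 13. The groups again did not overlap. Taar7d had 0.472, 0.4996, 0.259 and 0.301 CPM in OMP_IGF1R and 0.716, 0.592, 0.725 and 0.540 CPM in IGF1R_flfl on that scale, also without overlap. In CPM the groups had overlapped for Taar7d, and the other members overlapped on both scales. The share of all genes that separate the groups per 100 CPM of Nqo1 was not determined, so these separations have no background beside them. With libraries scaled to Nqo1 in the fit of all genes, which was chosen after the data were seen, the log2 fold change of Taar7a was -1.66 (SE 0.586) and its call was lost (edgeR adjusted p = 0.61). The SE under TMM was 0.226, and 56 of all genes were called under the scaling to Nqo1.

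**Figure D3:**
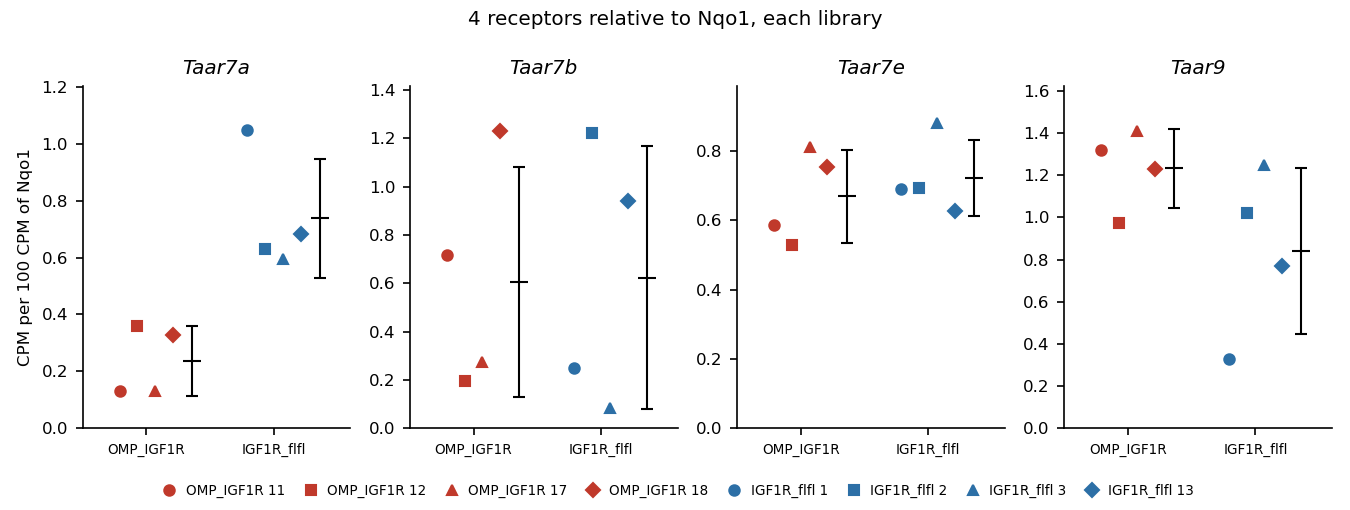
Levels of 4 receptors as CPM per 100 CPM of Nqo1 in each library, OMP_IGF1R (red) left of IGF1R_flfl (blue), with mean and SD in black (n = 4 each). Taar7a remains apart, at 0.130 to 0.361 in OMP_IGF1R and 0.594 to 1.05 in IGF1R_flfl, Taar7b spans 0.0832 to 1.23 over both groups, and Taar7e and Taar9 overlap.

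The summed Olfr genes, the larger receptor family of the same epithelium, separated by group. The 1110 Olfr genes of the table summed to 2259, 2075, 2445 and 2231 CPM in OMP_IGF1R 11, 12, 17 and 18, against 3211, 2896, 3571 and 3035 CPM in IGF1R_flfl 1, 2, 3 and 13, without overlap. Within OMP_IGF1R replicates 11 and 17 were above 12 and 18, but 11 was only slightly above 18 (2259 against 2231 CPM). IGF1R_flfl 3 was again the highest library, but IGF1R_flfl 1, the lowest of its group for 8 of the 10 receptors, was second highest for the Olfr sum. The trace amine-associated receptors made up 0.917%, 0.372%, 0.706% and 0.499% of that sum in OMP_IGF1R and 0.288%, 0.871%, 0.768% and 0.638% in IGF1R_flfl, with overlap. The 129 Olfr genes between 102476773 and 105369355 on chromosome 7, the stretch that holds the class I receptors of mostly dorsal neurons, summed to 187, 82.0, 179 and 92.3 CPM in OMP_IGF1R and to 76.7, 133, 259 and 130 CPM in IGF1R_flfl. Their 3 lowest libraries were the 3 in which Nqo1 was lowest. This stretch was chosen after the data were seen. Whether the 2 families differed in their change between the groups was not tested.

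**Figure D4:**
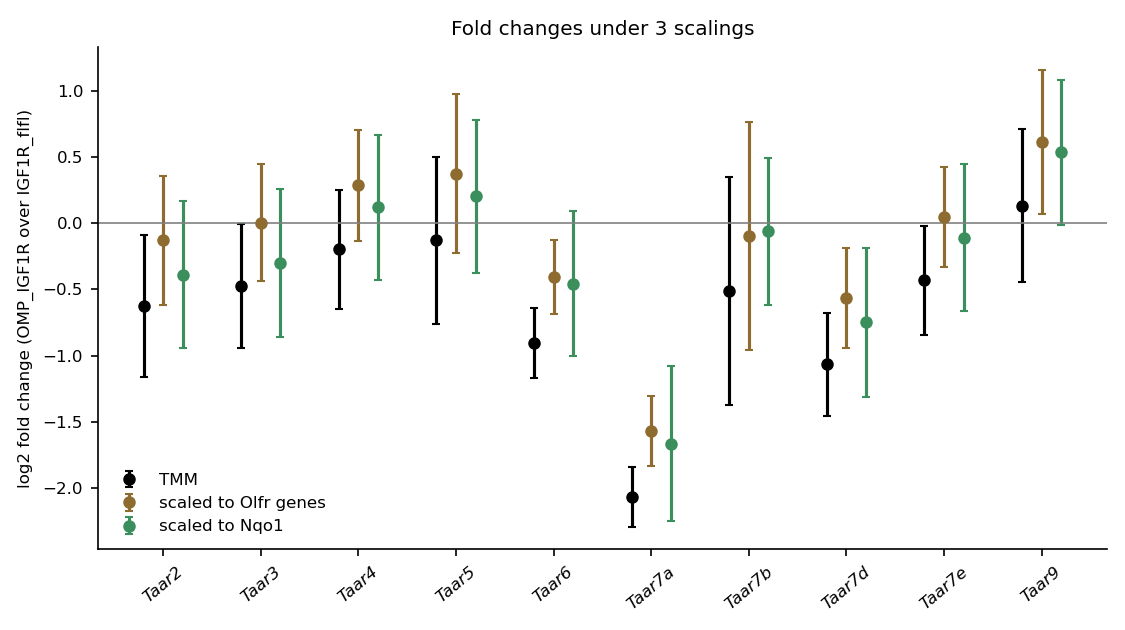
Log2 fold change of each receptor, OMP_IGF1R over IGF1R_flfl, with its SE, under TMM (black), scaling to summed Olfr counts (brown) and scaling to Nqo1 (green). Taar7a is lowest under all 3, at -2.06, -1.57 and -1.66 in that order, and Taar9 is the highest, at 0.13, 0.62 and 0.54.

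Scaled to the Olfr sum, Taar7a was still called (log2 fold change -1.57, SE 0.265, edgeR adjusted p = 0.00112), and none of the other 9 members was. Of all 17381 tested genes 12681 were called under that scaling, 12530 higher and 151 lower. The median over all tested genes was then 0.48 on the log2 scale, beside -0.01 under TMM. Under the Olfr scaling Taar4, Taar5, Taar7e and Taar3 stood at 0.29, 0.37, 0.05 and 0.0036, above 0 but below that median.

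Of the 4 Taar genes left after the 10 members and Taar7f, none passed the filter on low counts. Taar1, which is known from the brain rather than from olfactory neurons, had 0 counts in all 8 libraries, which allows up to 0.109 to 0.153 CPM per library (3 counts, counting error only). Taar8a had 2 counts in OMP_IGF1R and 5 in IGF1R_flfl, and Taar8c had 6 and 1 in the same order. Taar8b had 6, 1, 6 and 0 counts in OMP_IGF1R 11, 12, 17 and 18, against 3, 7, 22 and 6 counts in IGF1R_flfl 1, 2, 3 and 13. Within 2 mismatches, 62.2% of windows in Taar8a, 77.9% in Taar8b and 83.0% in Taar8c matched another Taar transcript.

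The genes beside the cluster did not pass the test. Of the 5 tested genes that start within 250 kb of it, 0 were called by edgeR, DESeq2 or voom, and 2 had an unadjusted p under 0.05 (Rps12 and Moxd1). Moxd1, a monooxygenase-like gene, stood at 59.7 ± 7.32 CPM in OMP_IGF1R and at 50.2 ± 5.27 CPM in IGF1R_flfl (log2 fold change 0.25, edgeR adjusted p = 0.158). Stx7, a syntaxin of endosomes, stood at 107 ± 6.94 CPM in OMP_IGF1R and at 106.4 ± 5.36 CPM in IGF1R_flfl (SD, n = 4 each).

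Trace amine-associated receptor neurons signal through the cyclic AMP cascade of other olfactory neurons. In bulk tissue the genes of that cascade are read over all olfactory neurons together, so their values do not single out these receptor neurons. Of 22 odour transduction genes, 14 fell and 0 rose, and 8 missed the threshold (median log2 fold change -0.55), where 5.37% of all tested genes were called lower. Those with the smallest p were Omp (-1.45), Pde1c (-0.77), a phosphodiesterase, Ano2 (-0.90), a chloride channel, and Adcy3 (-0.90), the adenylyl cyclase of odour signalling. Omp is also the gene that names the OMP mice, so its level need not follow that of the others. Under scaling to the mature neuron list, which leaves out Omp, Omp stood at -0.81, Pde1c at -0.14, Ano2 at -0.26 and Adcy3 at -0.25. Of 25 genes of receptor choice and transport, 3 fell and 0 rose (median 0.02): Adcy3 and the receptor transport proteins Rtp2 (-0.51) and Rtp1 (-0.42). Scaled to the mature neuron list, to which both belong, Rtp2 stood at 0.12 and Rtp1 at 0.21, below the median of 0.61 over all genes under that scaling. Kdm1a, a histone demethylase needed for receptor choice, had a log2 fold change of 0.22 and did not pass the test (edgeR adjusted p = 0.0635), but passed with DESeq2 and with voom.

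Among the 4 dorsal zone genes edgeR, DESeq2 and voom called 0, and 0 had an unadjusted p under 0.05. Of the 5 ventral zone genes 0 were called by edgeR, 2 by DESeq2 (Nfia and Nfib) and 1 by voom (Nfia). The ventral genes had log2 fold changes of 0.29 for Nfia, 0.23 for Nfib and -0.21 for Nfix, nuclear factors of the ventral zone, and -0.22 for Ncam2, a ventral adhesion molecule, with unadjusted p under 0.05 for all 4. Summed, the dorsal list stood at 1047, 633, 890 and 664 CPM in OMP_IGF1R and at 516, 902, 927 and 848 CPM in IGF1R_flfl, the ventral list at 572 to 618 CPM in OMP_IGF1R and 557 to 676 CPM in IGF1R_flfl. Among 8 tested genes of the guanylyl cyclase D and Trpc2 neurons, other small classes of olfactory neuron, 0 were called by edgeR, and 2 had an unadjusted p under 0.05. By DESeq2 Pde2a was called, and by voom Gucy1b2. The 2 genes were Pde2a (0.28, edgeR adjusted p = 0.0785), the phosphodiesterase of guanylyl cyclase D neurons, and Gucy1b2 (-1.12, edgeR adjusted p = 0.127), a soluble guanylyl cyclase subunit.

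Other cell lists were read for what the tissue held. Of 22 mature neuron genes 17 fell and 0 rose (median log2 fold change -0.62), and of 18 immature neuron and precursor genes 13 rose and 0 fell (median 0.85). Of 12 sustentacular cell genes 0 had an unadjusted p under 0.05 and edgeR, DESeq2 and voom called 0, at sums of 20329 to 21352 CPM in OMP_IGF1R and 18390 to 23533 CPM in IGF1R_flfl. Of 4 tested muscle genes edgeR, DESeq2 and voom called 0, and 4 had an unadjusted p under 0.05. Of 15 tested bulb and oligodendrocyte genes 2 were called higher (Olig1 and Olig2) and 1 lower (Eomes). The mature neuron genes and Taar7a were lower in the same libraries, and scaled to that list Taar7a was still called (log2 fold change -1.44, SE 0.276, edgeR adjusted p = 0.000982). Under that scaling 13953 of all 17381 tested genes were called, 13860 higher and 93 lower. IGF1R_flfl 2 was rich in bulb markers and OMP_IGF1R 17 in muscle markers. With both libraries left out, Taar7a was called under TMM at -1.95 (SE 0.281, edgeR adjusted p = 0.00937).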

How the data were processed

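RNA was taken from dissected olfactory epithelium, and stranded poly(A)-selected libraries gave paired-end reads, per the labels' protocols. The deposited table holds whole-number read counts per gene, not normalized, as its values show. The submitters' processing notes name TopHat2 2.0.14, Trim Galore 0.3.7, DESeq2 (no version given) and SAMtools 1.2, with GRCm38 (mm10). For the counting step, the tool and its strand setting were not stated there or in the labels. A second table deposited by the authors, from their own comparison, gives log2 fold changes with errors, p-values, a test score and a mean signal in normalized counts, per the file headers. Its header gives no direction, and 100% of its calls that were tested here had the sign of OMP_IGF1R over IGF1R_flfl.

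Counts of 8 libraries, 4 per title group, were tested with edgeR 4.0.16 in R 4.3.3 (TMM, filterByExpr, quasi-likelihood F-test, threshold 0.05) and adjusted over 17381 genes. SE is the log2 fold change over the square root of F. Between replicates of a group the mean chi-square over genes was at least 11.4, so none was counted as a copy. Members, gene lists and alternatives were chosen with earlier results of these data known. Named were all Taar genes, up to 4 members of smallest p from the transduction, receptor choice, zone and guanylyl cyclase D lists, Igf1r, Omp, the 5 genes of closest profile and tested neighbours within 250 kb. Alternatives were other scalings, filters, DESeq2 1.42.0, limma 3.58.1 voom and left-out libraries. The test was tried on simulated data. Low counts limit precision, and floors cover counting error only.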

Additional observations from a re-analysis of the deposited data

Results flagged for a closer look

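Nqo1, the dorsal zone gene whose profile was closest to that of the receptors, stood at 131 CPM in IGF1R_flfl 1, far from the 303, 334 and 320 CPM of IGF1R_flfl 2, 3 and 13. Taar8c stood at 0.0454 CPM in IGF1R_flfl 13, which is 1 count, and at 0 in the other libraries of its group. Among 38 sets of 4 libraries examined these 2 stood apart, which is near the 1 in 20 that chance gives. With 0 in the other libraries of the group, 1 count is always flagged.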

How the results depend on the processing

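Taar7a stayed lower in all 19 alternatives, with log2 fold changes of -1.44 to -2.25, and was called in 18, with the scaling to Nqo1 as the exception. The number of members called was 1, and 2 with DESeq2, 0 scaled to Nqo1 and 1 to 2 over the libraries left out. Taar6 was the second receptor in both cases of 2. The number of genes called was 1425 (492 higher, 933 lower). It was 13953 scaled to the mature neuron list (13860 higher, 93 lower), 12681 scaled to summed Olfr counts (12530 higher, 151 lower), 56 scaled to Nqo1 (31 higher, 25 lower) and 370 scaled to Acsm4 (45 higher, 325 lower). It was 569 to 1477 over the libraries left out, at 569 without OMP_IGF1R 18, 613 without OMP_IGF1R 12, 724 without OMP_IGF1R 11, 841 without IGF1R_flfl 1 and 886 without IGF1R_flfl 3. The median over all genes was 0.61, 0.48, 0.27 and -0.27 on the log2 scale under these 4 scalings, and the last 2 were chosen after the data were seen. Scaled to mature neuron genes, Rtp2 (0.12), Rtp1 (0.21), Robo2 (0.52), Nfix (0.42) and Ncam2 (0.41) changed sign, as did Rtp1 (0.072), Robo2 (0.39), Nfix (0.29) and Ncam2 (0.28) scaled to Olfr counts. Scaled to mature neuron genes, Taar2 (0.027), Taar3 (0.15), Taar4 (0.44), Taar5 (0.53), Taar7b (0.024), Taar7e (0.20) and Nqo1 (0.30) also changed sign, without a call. Each of these values lies below the median over all genes under its scaling. Under that scaling Taar6 (-0.27), Taar7d (-0.42) and Taar7a stayed below 0, and Taar9 (0.77) stayed above 0. No paired analysis was possible because the groups share no replicate numbers.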

Other observations

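Taar9, singled out after its values were seen, made up 19.95%, 17.1%, 22.3% and 16.9% of the summed receptors in OMP_IGF1R 11, 12, 17 and 18, against 4.71%, 12.2%, 15.2% and 12.7% in IGF1R_flfl 1, 2, 3 and 13, without overlap. Taar7a made up 1.97% to 6.34% of the same sum in OMP_IGF1R and 7.23% to 14.9% in IGF1R_flfl, also without overlap and in the other direction. Shares of a single sum are tied to each other, and the shares of the other 8 members overlapped. In IGF1R_flfl 1 Taar9 had 12 counts, and Taar6, a gene of the same cluster, had 53.

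The windows from 250 bases before to 50 after the annotated start (RefSeq, GRCm38.p6) were read for the 9 members that have one. Neither the homeodomain core TAATTA nor CCCNNGGG, the core bound by Ebf factors, occurred in any of the 9 on either strand, and 5.29% and 13.7% of all such windows hold them. These letters were searched in these windows only. In Taar7a, Taar7b, Taar7d and Taar7e the annotated start is the first coding base. In Taar3, Taar5, Taar6 and Taar9 the bases after it open with atg. Such windows need not hold the start of transcription, so the absence does not describe the promoters.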
